A study of Mus musculus with 6 samples.

Results

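The genes described here encode the kinase that drives oocyte meiosis, its cyclin partners and the enzymes that switch it off and on. They are *Cdk1*, the cyclin genes *Ccnb1*, *Ccnb2*, *Ccnb3* and *Ccna2*, the phosphatase genes *Cdc25a*, *Cdc25b* and *Cdc25c*, and the inhibitory kinase genes *Wee2* and *Pkmyt1*. They were chosen by gene symbol, not by their values, and each of the 10 symbols matched 1 of the 15707 genes that the authors listed. All 10 had a mean of at least 1 FPKM over the groups, as did 10012 genes in all, and these are called measured genes below. FPKM are mapped fragments counted per kilobase of transcript and scaled to library size.

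CDK1 is active only when a cyclin is bound. Cyclin B1 and cyclin B2 are its main partners in M phase, and their destruction by the anaphase-promoting complex lets the oocyte leave metaphase. Bound CDK1 is held inactive by phosphates on a neighbouring threonine and tyrosine, which WEE2 and MYT1 (encoded by *Pkmyt1*) add and the CDC25 phosphatases remove. A fully grown oocyte makes little or no new RNA, so these proteins are made from stored mRNAs whose poly(A) tails are lengthened or shortened as meiosis proceeds.

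The study asked whether BTG4, an adaptor of the CCR4–NOT deadenylase, is needed to remove poly(A) tails in eggs. Follicle-enclosed oocytes of (C57BL x CBA) F1 females aged 10 to 12 days were microinjected with siRNAs, against *Btg4* in one group and with control siRNAs in the other. The follicles, pooled from 2 to 5 females, were cultured for 8 to 10 days and the oocytes were matured to metaphase II, where both groups were collected early, before *Btg4*-depleted oocytes left the arrest. Each group had 3 libraries of 50 oocytes, 6 libraries in all, and cDNA was primed on poly(A) tails, so that a value depends on the amount of an mRNA and on its tail together. In pooled oocytes, fewer oocytes with a transcript and less of it in each oocyte likewise cannot be told apart. The siRNAs were injected before the culture, so differences that arose during it cannot be told apart from those that arose in meiosis.

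The values are the authors' means over the 3 libraries of each group. They carry no replicate spread, so no test between the groups and no standard error could be computed, and no difference below is shown to exceed the spread between libraries. Differences are therefore given as values, as "higher" or "lower" in the group mean. FPKM are relative to all fragments of a library, so a lower value need not mean fewer molecules per oocyte. Library size, estimated from 320 genes for which the authors also deposited a mean normalized count, was about 7820000 fragments, with most genes giving between 6920000 and 8120000.

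*Btg4* itself was at 1766 FPKM in control and 39.3 FPKM in *Btg4*-depleted oocytes, 45-fold lower, so that RNA interference left a remainder of the transcript. The oocyte markers, 11 of 11 listed, lay between 356 and 5445 FPKM in control and between 291 and 4440 FPKM in *Btg4*-depleted oocytes. Of 11 markers of granulosa and cumulus cells, *Foxl2*, *Amh*, *Fshr* and *Ptx3* were not listed and the other 7 lay between 0.0433 and 14.8 FPKM in control and between 0.01 and 12.0 FPKM in *Btg4*-depleted oocytes, with a summed level of 32.6 FPKM in control and 34.1 FPKM in *Btg4*-depleted oocytes against 15592 and 16838 FPKM for the oocyte markers. Single markers of granulosa and cumulus cells differed in either direction. *Cyp19a1* was at 14.8 FPKM in control and 5.87 FPKM in *Btg4*-depleted oocytes, and *Inhba* at 4.28 and 9.24 FPKM. Such levels overlap those of the lowest of the 10 genes, and the part of RNA from these cells was not tested. The lowest of the 7 was *Has2*, a gene that cumulus cells switch on.

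Among the genes of the CDK1 switch, *Cdk1* was the one with a higher group mean by more than 2-fold in *Btg4*-depleted oocytes. Its level was 5.68 FPKM in control and 24.4 FPKM in *Btg4*-depleted oocytes, while its main cyclins *Ccnb1* and *Ccnb2* were both lower by nearly the same factor, 1.57-fold each in the FPKM as deposited. *Ccna2* and *Pkmyt1* were lower by 2.12-fold and 2.00-fold as deposited, and *Wee2* was nearly level (1.08-fold lower). The direction was thus not shared. After the groups were scaled to each other, 5 of the 10 genes were higher and 5 were lower, and *Wee2*, higher by little, was lower without scaling.

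Tails are added and removed at the 3′ ends of the transcripts, which were read for this reason. Dormant oocyte mRNAs often carry a cytoplasmic polyadenylation element (CPE), the site of the CPEB proteins, near the poly(A) signal. The letters TTTTAT and TTTTAAT, neither of which contains the other, were searched on the transcript strand in the last 150 bases of each 3′ UTR in GENCODE M21 (GRCm38, while the authors' files rest on mm9). The transcript closest to the deposited length was taken, and 26.5% of 8729 measured genes with a 3′ UTR of at least 150 bases held at least 1 match. The sequences that follow are 30 bases each, 5′ to 3′, with the CPE in capitals, and they show where the cyclin and *Wee2* transcripts carry one.
Ccnb1, chr13:100778775-100778804, minus strand: ctcatttgctgTTTTAATttatacatctga
Ccna2, short 3′ UTR, upstream site, chr3:36566068-36566097, minus strand: ttttaaaatggTTTTAATttgtatatcttt
Ccna2, short 3′ UTR, downstream site, chr3:36566026-36566055, minus strand: tatttggataaTTTTAATtggttaacattg
Ccnb3, chrX:6979702-6979731, minus strand: tcttgaaattacTTTTATgaaagaagagaa
Wee2, upstream site, chr6:40466757-40466786, plus strand: tttttaacataTTTTAATccagatcattgt
Wee2, downstream site, chr6:40466784-40466813, plus strand: tgtaaataaagaTTTTATcttatccaaaga

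The *Ccnb1* element starts 144 bases before the end of the transcript of 2489 bases and 62 bases before the end of the one of 2140 bases, which end at different poly(A) signals. Both lengths are about equally far from the deposited 2316 bases, so either form may have been counted. In *Wee2* the elements start 46 and 18 bases before the end and lie on both sides of the poly(A) signal AATAAA, whose letters can be seen in lower case as aataaa in the downstream site. *Ccna2* has its elements, 109 and 67 bases before the end, in a transcript of 2001 bases, while its transcript of 2965 bases, the one closest to the deposited length, held 0 in the last 150 bases.

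The end of the longer *Cdk1* transcript held 0 matches in the last 150 bases, and so did that of the short form. The 30 bases around the poly(A) signal of the longer form are shown next, with the signal in capitals, beside the same of *Ccnb2*, a cyclin without a match.
Cdk1, chr10:69335156-69335185, minus strand: ctaatggcacggAATAAAaggattattcac
Ccnb2, chr9:70407693-70407722, minus strand: gtattgaaggaaAATAAAgctattgatcta

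Of the other genes, *Cdc25a*, *Cdc25b*, *Cdc25c* and *Pkmyt1* held 0 matches. Thus *Ccnb1*, *Ccnb3* and *Wee2* held a match in the transcript closest to the deposited length, and *Ccna2* in its shorter form. A match is a run of letters and no evidence of binding, and other forms of the element were not searched. The Pumilio motif TGTANATA was searched on the transcript strand over the whole 3′ UTR, and 25.9% of the same 8729 genes held it. It had 2 matches each in *Ccnb1* and *Wee2* and 1 each in *Cdk1*, *Ccna2* and *Cdc25c*. The match of *Ccna2* lay in its longer form, and the shorter form, which holds the CPE, had 0.

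Cyclin B1 mRNA was the most abundant of the 10. *Ccnb1* (Entrez gene 268697, chromosome 13) was at 772 FPKM in control and 492 FPKM in *Btg4*-depleted oocytes, at places 56 and 95 among all listed genes. It alone made up 59.5% of the summed FPKM of the 10 genes in control and 54.1% in *Btg4*-depleted oocytes. Processed pseudogenes of *Ccnb1* and *Ccnb2* are annotated in the mouse genome, and how reads with several matches were counted is not stated, so that the values of both genes are uncertain to the extent that reads were shared with these copies.

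*Wee2* (Entrez gene 381759, chromosome 6), the oocyte form of the WEE kinases, came next with 209 FPKM in control and 194 FPKM in *Btg4*-depleted oocytes. *Ccnb2* (Entrez gene 12442, chromosome 9), the cyclin that can stand in for cyclin B1 in mouse oocytes, was at 185 and 118 FPKM. These 3 transcripts held the first 3 places among the 10 in both groups, in the same order.

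The middle of the order was held by the phosphatases of the early steps, cyclin A2 and MYT1. *Cdc25a* (Entrez gene 12530, chromosome 9), a phosphatase that helps to start meiosis, was at 42.4 FPKM in control and 25.3 FPKM in *Btg4*-depleted oocytes, and *Ccna2* (Entrez gene 12428, chromosome 3), the cyclin that also acts in S phase, at 37.6 and 17.8 FPKM. *Pkmyt1* (Entrez gene 268930, chromosome 17), whose product sits on internal membranes, was at 23.2 and 11.6 FPKM. *Cdc25b* (Entrez gene 12531, chromosome 2), the phosphatase that mouse oocytes need to resume meiosis, was at 15.9 and 18.0 FPKM.

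*Cdk1* (Entrez gene 12534, chromosome 10) stood in the eighth place of the 10 in control and in the fifth in *Btg4*-depleted oocytes, which was the largest shift in order. *Ccnb3* (Entrez gene 209091, chromosome X), a cyclin that mouse oocytes need to leave metaphase I, was at 4.65 FPKM in control and 6.02 FPKM in *Btg4*-depleted oocytes. *Cdc25c* (Entrez gene 12532, chromosome 18), which mice can do without, was lowest in both groups, at 2.55 and 4.07 FPKM. Without a spread, neighbours in the order that are close, such as *Cdc25a* and *Cdk1* (1.04-fold apart) or *Cdc25b* and *Ccna2* (1.01-fold apart) in *Btg4*-depleted oocytes, cannot be placed one above the other.

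**Figure D1:**
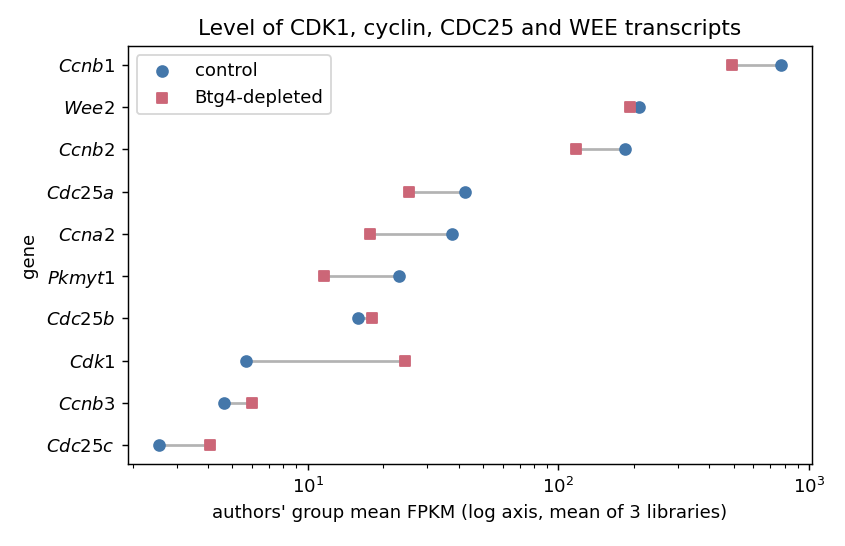
Authors' group mean FPKM (log axis) of the 10 transcripts, ordered by the control level, with circles for control and squares for *Btg4*-depleted oocytes (mean of 3 libraries each, no error available). *Cdk1* is at 5.68 and 24.4 FPKM and *Ccnb1* at 772 and 492 FPKM, while the marks of *Wee2* (209 and 194 FPKM) lie nearly on each other.

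For the lowest of these genes few fragments stand behind a value. At the estimated library size, *Cdc25c* rests on about 38.8 fragments per library in control and 61.9 in *Btg4*-depleted oocytes, and *Cdk1* on about 127 and 545. *Ccnb1* rests on about 13985 and 8919 fragments per library.

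Comparison of levels between genes depends on the transcript length that went into the FPKM. For *Cdk1* that length was 2860 bases, while the coding transcripts of this gene with a 3′ UTR in GENCODE M21 have 1253 and 4375 bases. The place of *Cdk1* among the genes therefore depends on which form the oocyte makes. The difference between the groups does not, as long as both groups make the same form. For the other 9 genes the closest annotated transcript differed by at most 7.47% from the deposited length.

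To compare the groups, the mean FPKM of both were rescaled to each other by TMM (a mean of log2 ratios without the extremes). This shifted the log2 ratio by 0.16. A pseudocount of 1 FPKM was then added on both sides, which makes the ratio of a low gene smaller. Differences are thus relative to the typical measured transcript. The median log2 ratio was -0.19 as deposited, -0.15 with the pseudocount alone and -0.02 after scaling and the pseudocount.

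*Cdk1* was higher in *Btg4*-depleted oocytes with a log2 ratio of 2.07, or 4.21-fold. The ratio was at least as large in 2.24% of all measured genes, and in 2.26% of the 3317 measured genes within 2-fold of its mean level. It was thus among the larger differences in group mean, and many other transcripts had one as large. It was the 1 gene of the 10 at least 2-fold higher, against 19.5% of all measured genes, and 0 of the 10 were at least 2-fold lower, against 11.4% of all measured genes. Neither count of the 10 stands above its background.

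In the FPKM as deposited, without scaling but with the pseudocount, *Cdk1* was still the 1 gene at least 2-fold higher (background 16.2%), and *Ccna2* was at least 2-fold lower (background 16.7%). Of all measured genes past 2-fold, 63.1% were higher after scaling and 49.1% without it. Whether *Ccna2* is past 2-fold thus depends on the scaling, as it had a scaled log2 ratio of -0.88 and an unscaled one of -1.04.

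*Pkmyt1* came next on the lower side with a scaled log2 ratio of -0.79. After *Cdc25a* (-0.56) came 2 of the 3 B-type cyclins, with -0.48 for *Ccnb1* and -0.48 for *Ccnb2*. None of these 5 lower ratios was rare, since 15.9% of measured genes had a ratio as low as that of *Ccna2* and 32.8% one as low as that of *Ccnb1*.

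*Wee2* had a scaled log2 ratio of 0.05, which turned to -0.11 without scaling. *Cdc25b* (0.32), *Ccnb3* (0.45) and *Cdc25c* (0.64) were higher in group mean, by less than 2-fold. The quartiles over all measured genes were -0.66 and 0.77, and these 4 genes fall between them. The median log2 ratio was -0.22 over the 10 genes and -0.02 over all measured genes.

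**Figure D2:**
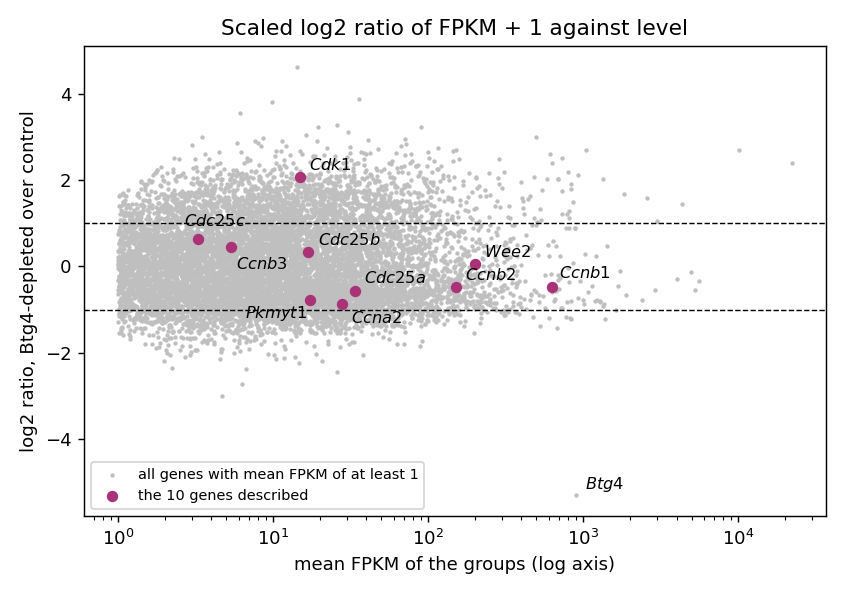
Scaled log2 ratio (*Btg4*-depleted over control, FPKM + 1) against the mean FPKM of the groups (log axis) for 10012 measured genes (grey) and the 10 genes described (purple). Dashed lines mark 2-fold, and *Cdk1* at 2.07 is the 1 of the 10 that lies outside them.

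The signs depended little on how the same group means were treated, which says nothing of the spread between libraries. A change of pseudocount or the removal of the minimum could not turn a sign. Under 9 settings of scaling, pseudocount, filter and length trend, *Cdk1* stayed between 1.92 and 2.24 on the log2 scale, above 2-fold in every setting. *Ccnb1* stayed between -0.65 and -0.46, *Ccnb2* between -0.81 and -0.46, and *Pkmyt1* between -0.95 and -0.77. The sign turned for *Wee2* alone among the 10.

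**Figure D3:**
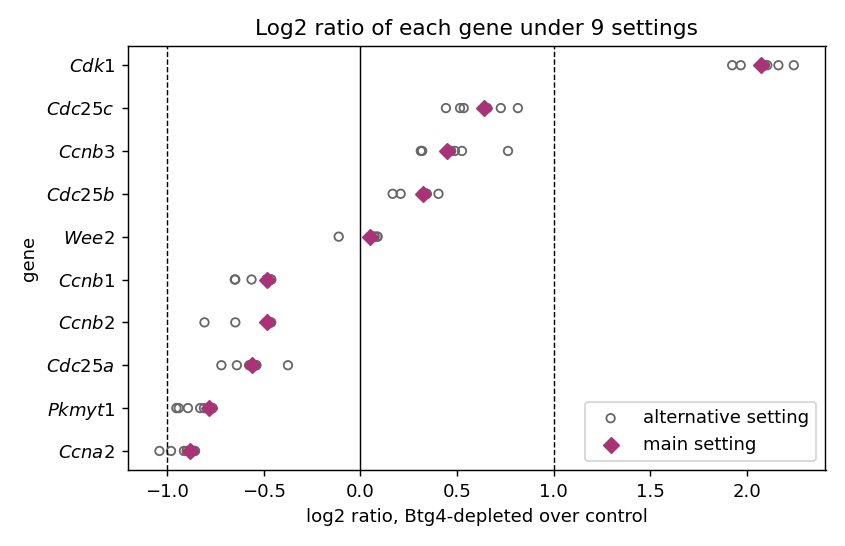
Log2 ratio, *Btg4*-depleted over control, of each gene under the main setting (diamonds) and the alternatives (open circles). *Ccna2* crosses the 2-fold line (dashed) in the setting without scaling, and *Wee2* crosses 0.

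The scaled log2 ratios of the 4 genes with a CPE in one of their forms, *Ccnb1*, *Ccnb3*, *Wee2* and *Ccna2*, -0.48, 0.45, 0.05 and -0.88, and those of the genes without a match overlap. Matches were also counted in the closest transcript of the 8729 measured genes with a 3′ UTR of at least 150 bases. By that rule *Ccna2* is without a match, and *Pkmyt1*, with a 3′ UTR of 124 bases, is not included. The 6414 genes without a match had a median log2 ratio of 0.04. The 1847 with 1 match had -0.38 and the 468 with more than 1 match -0.55. These groups also differed in transcript length, with medians of 2817, 3003 and 3361 bases, and the part of length in these medians was not tested.

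Ratios between transcripts of the same group were taken from the FPKM as deposited, and a common scaling factor cancels in them. Quantile normalization and removal of the length trend do not cancel, with log2 ratios between the groups of -0.65 for *Ccnb1* and -0.48 for *Ccnb2* under the former and of -0.56 and -0.81 under the latter. As deposited, *Ccnb1* stood to *Ccnb2* as 4.18 in control and as 4.19 in *Btg4*-depleted oocytes. *Ccnb1* made up 77.3% and 77.7% of the summed FPKM of the 4 cyclins in control and *Btg4*-depleted oocytes, *Ccnb2* 18.5% and 18.6%, *Ccna2* 3.77% and 2.81%, and *Ccnb3* 0.47% and 0.95%. The shares of *Ccnb1* and *Ccnb2* were thus close in both groups. In *Btg4*-depleted oocytes the small share of *Ccna2* was lower and that of *Ccnb3* higher. The summed level of the 4 cyclins was 999 FPKM in control and 634 FPKM in *Btg4*-depleted oocytes.

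The balance between the cyclins and their kinase differed between the group means. *Ccnb1* and *Ccnb2* together had 168 times the FPKM of *Cdk1* in control and 25 times after *Btg4* depletion, a ratio 6.72-fold lower. For *Ccna2* and *Cdk1* the ratios were 6.62 and 0.730 in the FPKM as deposited. Which mRNA stands higher in a group depends on the length of 2860 bases used for *Cdk1*. Its annotated coding transcripts with a 3′ UTR have 1253 and 4375 bases, and the order at those lengths was not tested. The values here are ratios of mRNA in the poly(A) fraction and say nothing of the proteins.

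Among the regulators, the shares of the phosphatases shifted by more percentage points than those of the cyclins. *Cdc25a* held 69.7% of the summed FPKM of the 3 CDC25 genes in control and 53.5% in *Btg4*-depleted oocytes, *Cdc25b* 26.1% and 37.9%, and *Cdc25c* 4.19% and 8.59%. For the inhibitory kinases, *Wee2* stood to *Pkmyt1* as 9.05 in control and as 16.7 after *Btg4* depletion. The sum of both kinases over the sum of the 3 phosphatases was 3.82 and 4.33, a difference of 1.13-fold.

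**Figure D4:**
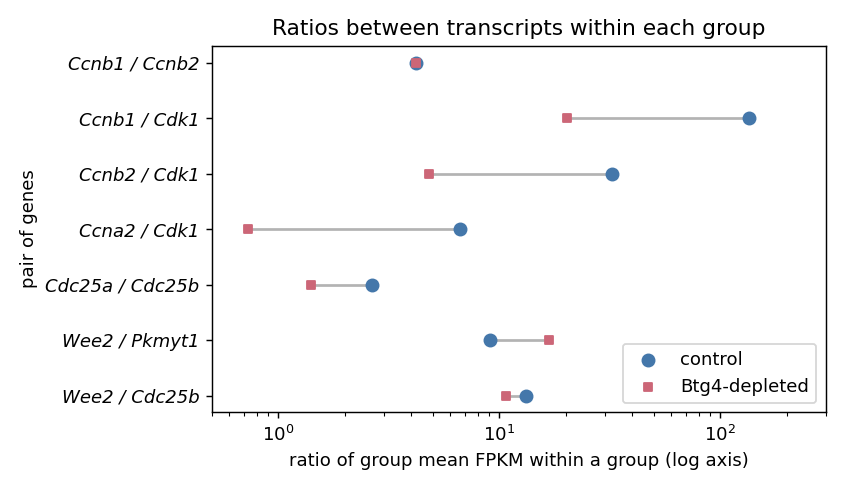
Ratios of group mean FPKM between pairs of transcripts (log axis), with circles for control and squares for *Btg4*-depleted oocytes. The ratio of *Ccnb1* to *Ccnb2* is nearly the same in both groups (4.18 and 4.19), while that of *Ccnb1* to *Cdk1* is 136 and 20.2.

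Overlapping genes touch 4 of the 10. Exons of *Ccna2* share 510 bases with *Exosc9* on the other strand, those of *Pkmyt1* 319 bases with *Paqr4*, those of *Cdc25b* 92 bases with *Spef1*, and those of *Cdc25c* 623 bases with *Gm3550*. The counting is not stated to use strand, so reads in these stretches cannot be assigned to one gene. *Exosc9* was at 43.5 FPKM in control and 35.9 FPKM in *Btg4*-depleted oocytes, with a scaled log2 ratio of -0.11 beside -0.88 for *Ccna2*. *Paqr4* had a ratio of 0.28 beside -0.79 for *Pkmyt1*. *Spef1* was at 0.13 and 2.86 FPKM, a ratio of 1.84 beside 0.32 for *Cdc25b*, in the same direction. No value was listed for *Gm3550*, and the part of shared reads in the ratios of these genes was not tested. *Cdk1*, *Ccnb1*, *Ccnb2*, *Ccnb3*, *Wee2* and *Cdc25a* shared no exon bases with another annotated gene.

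The rest of the CDK1 pathway was described from 5 lists, chosen with earlier results of these data known. In all 42 genes were listed and 37 measured, of which 10 were at least 2-fold higher after scaling and 2 at least 2-fold lower (background 19.5% and 11.4%). Without scaling the counts were 7 and 3, and with the length trend removed they were 6 and 4. The median log2 ratio was 0.14, against -0.02 over all measured genes.

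CKS1 and CKS2 are small proteins that bind CDK1, and both transcripts had a lower group mean in *Btg4*-depleted oocytes. *Cks2* was at 289 FPKM in control and 162 FPKM in *Btg4*-depleted oocytes and *Cks1b* at 176 and 87.9 FPKM. Their scaled log2 ratios were -0.67 and -0.83, beside a lower quartile of -0.66 over all measured genes. Both are short transcripts, and with the trend on length removed the ratios were -1.23 and -1.38. *Ccnh*, the cyclin of the CDK-activating kinase, was at 10.2 and 32.6 FPKM, a log2 ratio of 1.74, while its partner *Cdk7* was at 11.4 and 12.4 FPKM. The 5 measured genes of this list had a median log2 ratio of -0.14.

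Of the other cell cycle cyclins and CDKs, 4 of 8 measured genes were at least 2-fold higher and 0 at least 2-fold lower. The shares over all measured genes were 19.5% and 11.4%. The median log2 ratio of this list was 0.86. *Ccnf*, which encodes the F-box protein cyclin F, was at 5.32 FPKM in control and 29.4 FPKM in *Btg4*-depleted oocytes, the largest ratio of the lists (log2 ratio 2.41). *Cdk2* and *Cdk4*, kinases of the G1 and S phases, were at 4.10 and 9.99 FPKM and at 2.09 and 6.79 FPKM, and *Ccnd2*, a D-type cyclin, at 5.65 and 18.1 FPKM. *Ccne2*, an E-type cyclin gene and the most abundant of this list, was at 31.0 and 30.7 FPKM. *Cdk2* was past 2-fold in 9 of 9 settings and *Cdk4* in the 8 in which it was measured. *Cdk4*, with a mean of 4.44 FPKM, fell below the minimum of 5 FPKM. The settings reuse the same means, and the fragments behind the list genes were not estimated. In control *Cdk4* (2.09 FPKM) lay below *Cdc25c* (2.55 FPKM), a gene that rests on few fragments.

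Among the CDK inhibitors and *Wee1*, 1 of 5 measured genes was at least 2-fold lower, against 11.4% of all measured genes. With the length trend removed 2 were (*Cdkn1b* and *Cdkn2c*). *Cdkn1b*, which encodes the CDK inhibitor p27, was at 10.0 FPKM in control and 3.03 FPKM in *Btg4*-depleted oocytes (log2 ratio -1.32). *Wee1*, the somatic relative of *Wee2*, was at 1.07 and 2.22 FPKM, far below *Wee2* in both groups.

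The phosphatases that undo CDK1 phosphorylation and their regulators had 3 of 11 measured genes at least 2-fold higher and 0 at least 2-fold lower. The background over all measured genes was 19.5% and 11.4%. *Ppp2ca*, the catalytic subunit of PP2A, was at 13.5 FPKM in control and 28.8 FPKM in *Btg4*-depleted oocytes, *Ppp2r2d*, a B55 subunit, at 30.1 and 54.7 FPKM, and *Ensa*, an inhibitor of PP2A-B55, at 8.41 and 16.7 FPKM. The ratios of *Ensa* and *Ppp2r2d* (1.06 and 1.00 on the log2 scale) lay at the 2-fold line and were past it in 6 of 9 settings each. Without scaling 1 gene of this list was at least 2-fold higher and 1 at least 2-fold lower. The latter was *Ppp1cb*, a catalytic subunit of PP1, at 15.6 and 6.51 FPKM, which was past 2-fold in 4 of 9 settings. With the length trend removed 0 genes of this list were past 2-fold in either direction, and *Ppp2ca* then had a log2 ratio of 0.99. *Ppp2r1a*, the PP2A scaffold and the most abundant of this list in control, was at 74.0 and 39.8 FPKM, and *Mastl*, the Greatwall kinase, at 66.4 and 52.6 FPKM.

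Of the checkpoint kinases and 14-3-3 proteins that act on CDC25, 2 of 8 genes were at least 2-fold higher and 1 at least 2-fold lower. Over all measured genes the shares were 19.5% and 11.4%. *Ywhah*, a 14-3-3 gene, was at 6.00 FPKM in control and 25.2 FPKM in *Btg4*-depleted oocytes (log2 ratio 2.05), and *Ywhaq* at 125 and 246 FPKM (log2 ratio 1.14, and 0.98 without scaling). *Chek1*, a kinase that inhibits CDC25, was at 210 and 85.5 FPKM (log2 ratio -1.13, and -0.99 with the length trend removed). In that setting 1 gene of this list was at least 2-fold higher and 0 were at least 2-fold lower. *Ywhae*, the most abundant of this list in control, was at 291 and 267 FPKM.

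**Figure D5:**
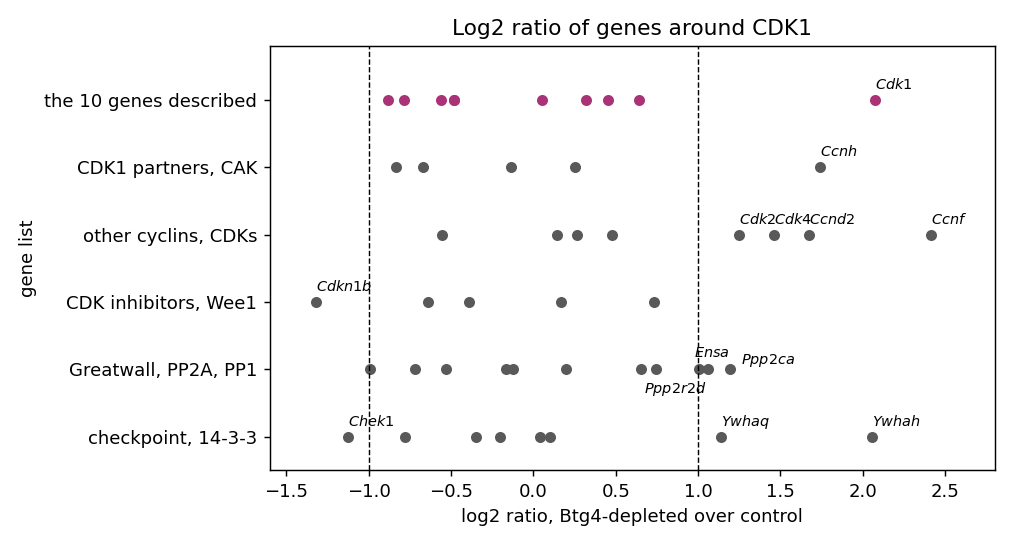
Scaled log2 ratio, *Btg4*-depleted over control, of the 10 genes described (purple, top) and of the 37 measured genes of the 5 pathway lists (grey), with names for those past 2-fold (dashed lines). *Cdk1* at 2.07 and *Ccnf* at 2.41 lie farthest to the right, and *Cdkn1b* at -1.32 farthest to the left.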

How the data were processed

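Messenger RNA with poly(A) tails was sequenced in 3 libraries per group, and the titles of the samples gave the groups (*Btg4*-depleted and control oocytes). The authors deposited the mean FPKM of each group per gene, from paired-end reads, with the transcript length. BWA and mm9 are named in the submitters' processing notes. Not given in the sources used here are the counting program, the annotation and their versions. The authors' DESeq2 lists hold a mean normalized count over the 6 libraries (the signal in these tables), used here for library size alone. Their fold changes, p-values and probabilities, and the NOISeq lists, were not used.

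A limma test on single libraries had been planned and could not be run on group means. Log2 ratios of FPKM + 1 were taken after TMM scaling (30% of ratios and 5% of levels trimmed on each side) over the genes whose mean over both groups reached 1 FPKM. The 8 alternatives were scaling by the median of ratios, none or quantiles, a pseudocount of 0.1 or 0.5, a minimum of 5 FPKM, no minimum, and subtraction of a loess trend on length (span 30%). The computation was tested on simulated group means in which few genes differed, with equal numbers higher and lower. In the data more genes were past 2-fold, in unequal numbers, and that case was not simulated. The genes named are the 10, *Btg4*, the list genes past 2-fold, the most abundant of each list and the gene nearest to each of the 10. *Cks1b*, *Cdk7*, *Wee1*, *Mastl*, *Ppp1cb*, *Cdkn2c*, *Has2*, *Cyp19a1*, *Inhba*, the unlisted markers and the overlapping neighbours were added after their values were seen. The genes and lists were chosen with earlier results of these data known. Transcripts came from GENCODE M21, matched by Entrez identifier, with a 3′ UTR for 96.0% of measured genes. The software was Python 3.11.15 with pandas 2.3.3, numpy 2.4.6, statsmodels 0.14.6, scipy 1.17.1 and matplotlib 3.10.9.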

Additional observations from a re-analysis of the deposited data

How the results depend on the processing

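No paired analysis was possible because the deposited columns are group means without replicate numbers, and no library could be left out for the same reason. The median log2 ratio of the 10 genes, -0.22, was -0.19 with the median of ratios, -0.38 without scaling, -0.20 with quantile normalization, -0.46 at a minimum of 5 FPKM, which removes *Cdc25c*, and -0.14 with the length trend removed. At least 2-fold lower were 0 genes, and 1 without scaling. Of 79 values of single genes under the alternatives, 78 kept their sign. With another pseudocount or no minimum a sign could not turn, so that count is no measure of stability. Among all measured genes, 1140 were at least 2-fold lower, and 709 at a minimum of 5 FPKM, where 6733 genes were measured. Of the 37 measured pathway genes, 10 were at least 2-fold higher and 2 lower, and 6 and 4 with the length trend removed. By estimated fragments per library, depth limits *Cdc25c* most among the 10 genes (38.8 in control), then the control value of *Cdk1* (127) and that of *Ccnb3* (166).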

Other observations

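For each of the 10 genes, the listed gene nearest to it in log2(FPKM + 1) of both groups was looked up. This likeness rests on 2 group means and does not point to shared function or control. *Cdk1* lay nearest to *Commd4*, which was at 6.03 FPKM in control and 24.9 FPKM in *Btg4*-depleted oocytes. *Ccnb1* lay nearest to *Sfr1* (810 and 509 FPKM), *Ccnb2* to *Bbs4* (187 and 114 FPKM) and *Wee2* to *Fbxo34* (212 and 184 FPKM). *Ccna2* lay nearest to *Gm13051*, *Cdc25a* to *Ndnl2*, *Pkmyt1* to *Limd1*, *Cdc25b* to *Kcnk13*, *Ccnb3* to *Ranbp10* and *Cdc25c* to *Ccdc105*.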
